A study of Mus musculus with 18 samples.

Results

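The genes described here code for the nuclear subunits of mitochondrial complexes II, III, IV and V and for cytochrome c, measured in dopamine neurons of the mouse midbrain. They were chosen by symbol, as the genes whose names begin with Sdh followed by a, b, c or d, with Uqcr, with Cox and a digit from 4 to 8, or with Atp5, and Cyc1 and Cycs. This gave 48 of the 18193 genes on the array that had a probe set with a single symbol, and 96 of 34945 probe sets. Complex II had 4 genes, complex III had 9, cytochrome c had 1, and complexes IV and V had 17 each. The symbol rule used no measured value, but the set was chosen with earlier results of these data known.

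The mice were adult C57Bl/6 carrying the transgene that the labels call hTH-GFP, a green fluorescent protein reporter, and all groups carry it. One set of mice received MPTP at 4 mg/kg for 2 days, another the same dose for 10 days, and the controls saline for 10 days. Tissue was collected 7 days after the final dose. Laser capture isolated dopamine neurons of the substantia nigra (SN) and, separately, of the ventral tegmental area (VTA). The 18 arrays form 6 groups of 3, a region and a treatment each. Some label fields call the control animals untreated, while the treatment text gives them saline, and the 2 day groups had fewer days of injection than their controls. The labels call the replicates biological but do not tie an array to a mouse, nor say whether mice were pooled or whether the SN and VTA arrays of a number share a mouse. The p-values therefore measure only the spread between these arrays.

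The respiratory chain passes electrons from complex I and from complex II, which is succinate dehydrogenase, through complex III and the mobile carrier cytochrome c to complex IV, which reduces oxygen. The proton gradient built on the way drives complex V, the ATP synthase. The brain converts MPTP to a toxin that enters dopamine neurons and blocks complex I, so the complexes described here lie after or beside the known point of attack. All subunits of complex II and most subunits of the other complexes are coded in the nucleus, and several complex IV subunits exist as pairs of isoforms, a widespread form and a form found mainly in muscle, lung or testis.

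Nuclear genes of the respiratory chain are known as targets of the transcription factors NRF1, GABPA and YY1, so the letters of their promoters were searched. RefSeq promoter windows of 300 bases, 250 before and 50 after the transcription start, were found for 36 of the 48 genes. The 4 windows below are on the minus strand of GRCm38.p6 and show only the 250 bases before the start, with matches in capitals. Sdha (chr13:74350241-74350490), Cox6a1 (chr5:115348959-115349208) and Atp5g2 (chr15:102671048-102671297) are shown because they hold the NRF1 letters, and Cox7b2 (chr5:71548206-71548455) because it is the member of smallest p in the comparisons that follow. They were picked after their letters and values were seen.
Sdha: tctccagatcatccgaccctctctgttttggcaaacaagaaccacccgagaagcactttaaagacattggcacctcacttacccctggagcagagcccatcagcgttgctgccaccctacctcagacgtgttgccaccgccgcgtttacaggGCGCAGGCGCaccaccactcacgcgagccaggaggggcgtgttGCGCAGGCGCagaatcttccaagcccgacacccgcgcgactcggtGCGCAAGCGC
Cox6a1: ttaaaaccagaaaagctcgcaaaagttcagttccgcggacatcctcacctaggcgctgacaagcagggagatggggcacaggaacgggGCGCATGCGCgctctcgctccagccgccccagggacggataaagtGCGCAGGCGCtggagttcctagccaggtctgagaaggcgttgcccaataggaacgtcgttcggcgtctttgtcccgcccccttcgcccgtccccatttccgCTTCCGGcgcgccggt
Atp5g2: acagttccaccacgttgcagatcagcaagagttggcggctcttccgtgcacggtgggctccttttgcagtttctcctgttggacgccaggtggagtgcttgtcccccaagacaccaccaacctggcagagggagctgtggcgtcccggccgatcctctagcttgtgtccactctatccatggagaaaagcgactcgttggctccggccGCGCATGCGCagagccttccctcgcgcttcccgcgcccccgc
Cox7b2: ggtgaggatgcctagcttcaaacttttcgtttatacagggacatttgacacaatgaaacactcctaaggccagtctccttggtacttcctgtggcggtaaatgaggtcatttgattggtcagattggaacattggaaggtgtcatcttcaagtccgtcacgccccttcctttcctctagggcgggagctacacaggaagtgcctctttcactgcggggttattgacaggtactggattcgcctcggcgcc
The Sdha window held the NRF1 letters GCGCANGCGC 3 times, starting 98, 55 and 10 bases before the start. The Cox6a1 window held them at 162 and 117 bases before the start, and held CTTCCGG, the reverse complement of the GABPA letters CCGGAAG, 16 bases before it. The Atp5g2 window held the NRF1 letters 42 bases before the start, and the Cox7b2 window held none of the motifs searched. Over both strands of the whole windows, 10 of 36 member genes (27.8%) had the NRF1 letters, against 9.01% of the protein-coding genes on the array and 5.19% of all genes with a window. The GABPA letters were found in 13 of 36 (36.1%), against 15.5% and 9.93%. The YY1 letters AANATGGCG were found in 3 of 36 (8.33%), against 4.48% and 2.76%. At least 1 motif was present for 21 of 36 member genes, against 25.4% of the protein-coding genes on the array, and 4 of 36 had both the NRF1 and the GABPA letters, against 1.99%. These are matches of letters, not measured binding sites, and a match that overlaps another motif's match was counted for both.

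The deposited values are log2 signals centred so that each probe set's median over the 18 arrays is 0, so a value gives the distance from that median and no level. Whether a gene, or a marker of dopamine neurons or of another cell type, was present at all can therefore not be read from these values, and levels of different genes cannot be compared. Array 1 of the SN saline group and array 1 of the VTA 2 day group had the widest spread over all probe sets, with median absolute deviations of 0.349 and 0.399 against 0.182 to 0.302 on the other 16. As in any bulk sample, fewer cells of a type and less RNA per cell cannot be told apart.

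None of the 48 genes of complexes II to V and cytochrome c passed the test in any of the 14 comparisons. The threshold was an adjusted p of 0.05 from limma's moderated test with Benjamini-Hochberg adjustment over 18193 genes. In the SN, 0 of 48 passed at 2 days (all genes, 0%) and 0 of 48 at 10 days (all genes, 0.0055%). In the VTA, 0 of 48 passed at 2 days (all genes, 0.011%) and 0 of 48 at 10 days (all genes, 0.011%). With limma's p before adjustment, 3 of the 192 tests of members in these 4 comparisons were under 0.05, for Cox7b2 in the VTA at 2 days and for Atp5g2 and Uqcrc1 in the SN at 10 days. Among all genes the share under 0.05 before adjustment was 6.65% and 5.57% in the SN at 2 and 10 days, and 8.06% and 5.41% in the VTA.

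The intervals give the size of change that the data allow. The 95% interval of the log2 difference from saline lay within 1 either side of 0, a 2-fold change, for 45 of 48 members in the SN at 2 days (88.6% of all genes) and for 45 of 48 at 10 days (89.2%). In the VTA this held for 44 of 48 at 2 days (86.9%) and for 47 of 48 at 10 days (89.2%). In all 4 comparisons together it held for 43 of 48 members, against 79.3% of all genes. The 5 members outside were all complex IV genes, namely Cox6b2, Cox7a1, Cox7b2, Cox7c and Cox8b. With a bound of 0.5 either side of 0, a 1.41-fold change, it held in the SN for 32 of 48 members at 2 days (37.4% of all genes) and 28 at 10 days (38.6%). In the VTA it held for 35 of 48 at 2 days (37.5%) and 30 at 10 days (38.3%). In all 4 comparisons together 23 of 48 members met this bound, against 17.3% of all genes. Smaller changes lie inside the intervals of most members.

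**Figure D1:**
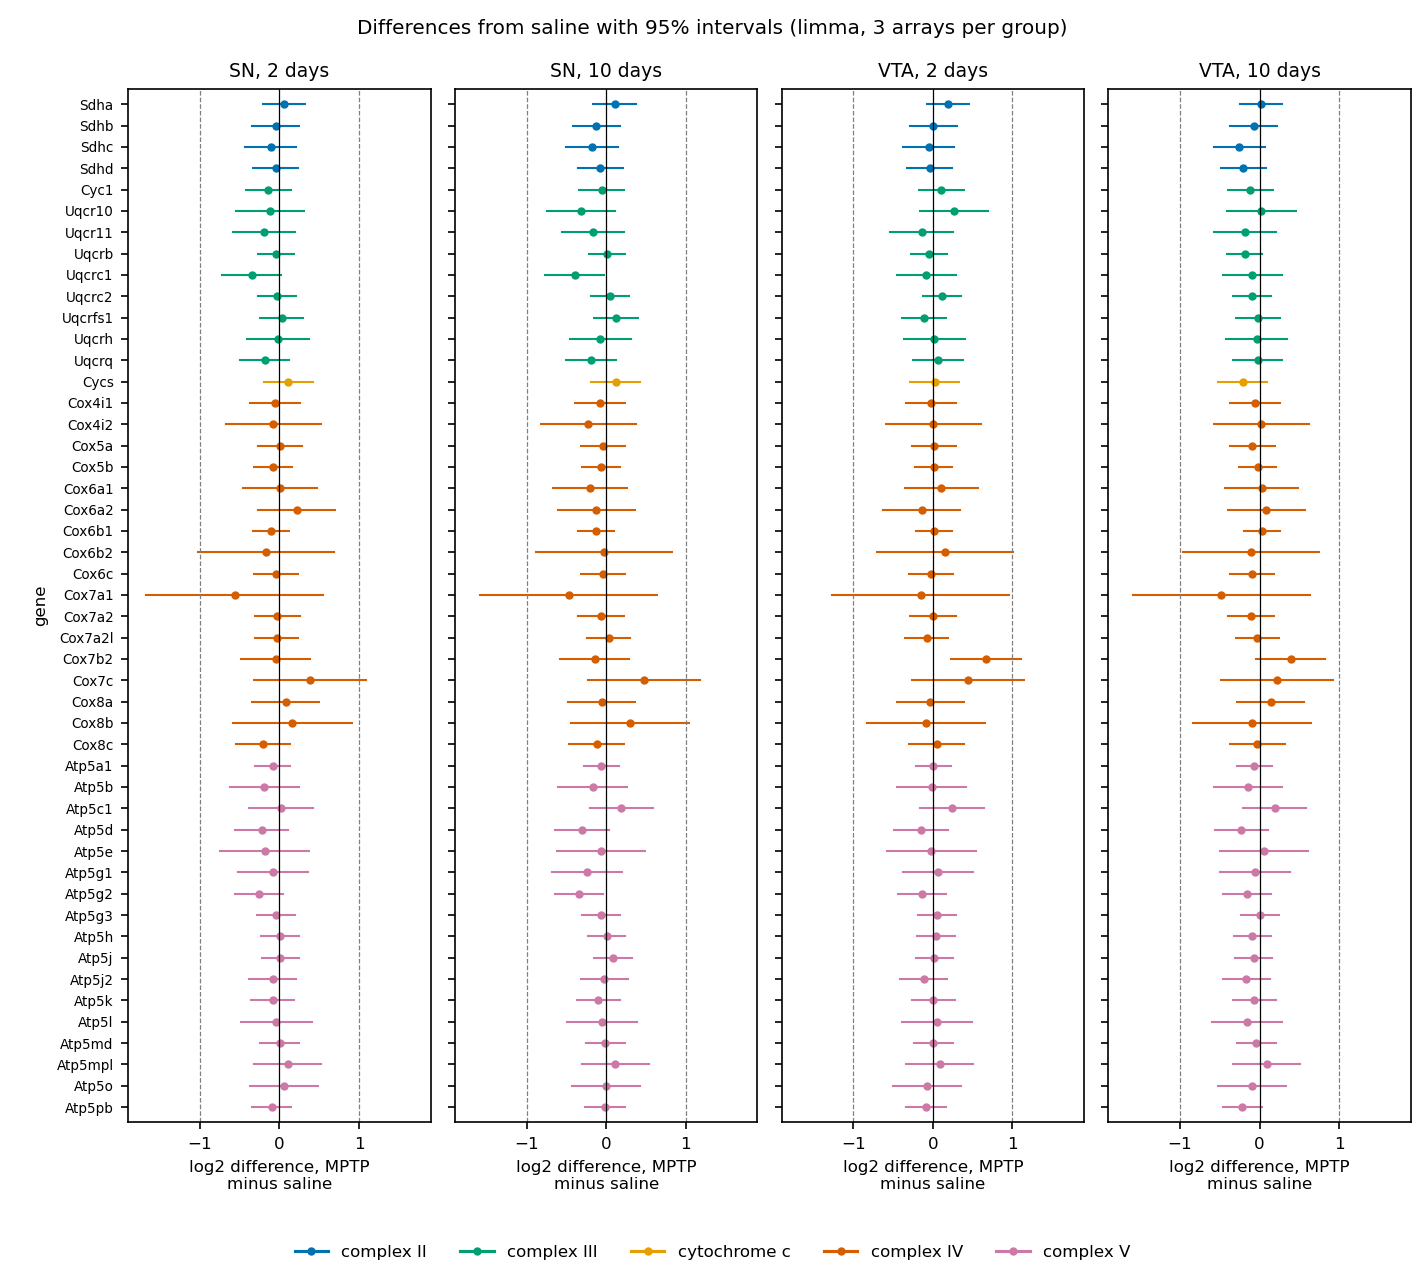
Log2 difference between MPTP and saline (horizontal axis) for each of the 48 genes (vertical axis), with 95% intervals from limma, in the SN and VTA at 2 and 10 days; colours mark the complexes and dashed lines a 2-fold change. Nearly all points lie close to 0, and the widest intervals belong to complex IV genes such as Cox7a1 and Cox7c.

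The median member difference from saline was -0.047 in the SN at 2 days, where 15 of 48 genes were above 0 (all genes, median -0.027 and 44.7% above 0). It was -0.063 in the SN at 10 days, with 12 of 48 above 0 (all genes, -0.017 and 46.6%). In the VTA it was 0.0071 at 2 days, with 28 of 48 above 0 (all genes, -0.0082 and 48.4%), and -0.070 at 10 days, with 13 of 48 above 0 (all genes, -0.0047 and 49.1%). The median of the 48 genes on single arrays had an SD of 0.031 to 0.068 within a group (n = 3). Its group mean in the SN was 0.047 with saline, 0.016 at 2 days and -0.0071 at 10 days. In the VTA it was 0.033, 0.025 and -0.055. That SD describes single arrays and is not the error of a difference between groups, and the median of the members was not tested. Leaving out 1 array gave median member differences of -0.096 to -0.020 in the SN at 2 days (without saline array 1 and without saline array 3) and -0.13 to -0.016 at 10 days (without 10 day array 3 and without 10 day array 2). In the VTA it gave -0.016 to 0.011 at 2 days, the negative value without saline array 2, and -0.10 to -0.031 at 10 days (without 10 day array 3 and without 10 day array 2). The counts above 0 then ran over 11 to 19 and 12 to 23 of 48 in the SN and 21 to 29 and 9 to 21 in the VTA. The 2 and 10 day comparisons of a region share its saline arrays, so they are not separate evidence.

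Complex II oxidises succinate and links the citric acid cycle to the chain. Its 4 genes are Sdha for the flavoprotein, Sdhb for the iron-sulfur subunit, and Sdhc and Sdhd for the membrane anchors. The median difference of the 4 was -0.046 and -0.098 in the SN at 2 and 10 days, and -0.017 and -0.14 in the VTA. Sdha, whose promoter letters are given above, read -0.093, -0.034 and -0.23 on the 3 SN saline arrays, -0.12, -0.037 and -0.025 at 2 days and 0.14, -0.035 and -0.14 at 10 days. In the VTA it read -0.14, 0.060 and 0.11 with saline, 0.34, 0.084 and 0.17 at 2 days and 0.17, 0.015 and -0.11 at 10 days. The highest array of all 18 was VTA 2 day array 1, an array of wide spread, and the saline and 2 day arrays of the VTA overlapped. The Sdha difference in the VTA at 2 days was 0.19 ± 0.13 (SE), with a limma adjusted p of 0.757, and its 4 probe sets gave 0.013, -0.049, 0.40 and 0.39, so the average rests on 2 of them.

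Sdhc in the VTA read 0.091, 0.081 and 0.30 with saline and -0.27, -0.13 and 0.11 at 10 days, and its difference was -0.25 ± 0.15 (SE), with a limma adjusted p of 0.928. Sdhd read 0.063, 0.017 and 0.20 with saline and -0.0050, -0.25 and -0.068 at 10 days, a difference of -0.20. For Sdhd all 10 day arrays lay below all saline arrays, while for Sdhc array 3 of the 10 day group lay above the 2 lowest saline arrays. Sdhb, the iron-sulfur subunit, differed from saline by -0.046, -0.12, 0.0070 and -0.074 in the SN at 2 and 10 days and the VTA at 2 and 10 days. Its lowest value of the 18 arrays was -0.40, on VTA 10 day array 2.

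Complex III passes electrons from ubiquinol to cytochrome c. Its members here are the core proteins Uqcrc1 and Uqcrc2, the catalytic subunits Cyc1 (cytochrome c1) and Uqcrfs1 (the Rieske iron-sulfur protein), and the small subunits Uqcrb, Uqcrq, Uqcrh, Uqcr10 and Uqcr11. In the SN 8 of the 9 were below 0 at 2 days and 6 of 9 at 10 days, with medians of -0.12 and -0.072. In the VTA 5 of 9 were above 0 at 2 days and 8 of 9 below 0 at 10 days, with medians of 0.020 and -0.089. On single arrays, the median complex III gene stood at -0.0014, 0.11 and 0.27 with saline in the SN, 0.082, -0.050 and -0.11 at 2 days and -0.021, -0.040 and 0.039 at 10 days. In the VTA it stood at -0.11, -0.046 and 0.19 with saline, 0.030, -0.0031 and 0.027 at 2 days and -0.11, -0.057 and -0.053 at 10 days. SN saline array 3 and VTA saline array 3 were the highest of their regions, and the treated and saline arrays overlapped in each comparison.

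Uqcrc1 had the most negative mean difference of the complex in the SN. It read -0.016, 0.32 and 0.36 with saline, -0.15, 0.016 and -0.25 at 2 days and -0.31, -0.41 and 0.19 at 10 days. Saline arrays 2 and 3 were high, saline array 1 was within the range of the treated arrays, and 10 day array 3 was well above the other two of its group. The difference was -0.35 ± 0.18 (SE) at 2 days, with a limma adjusted p of 0.76, and -0.40 ± 0.18 (SE) at 10 days, with a p before adjustment of 0.0386 and a limma adjusted p of 0.889. Leaving out each of the 6 arrays compared gave 10 day differences of -0.58 to -0.28. In the VTA Uqcrc1 read -0.19, 0.063 and 0.26 with saline, 0.030, 0.10 and -0.24 at 2 days and -0.15, -0.10 and 0.12 at 10 days, and differed by -0.083 and -0.089. Uqcrc1 is measured by 1 probe set, so no other probe set of the array can be set beside it.

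Uqcrc2, the other core protein, behaved otherwise. It read -0.14, 0.061 and 0.0085 with saline in the VTA, 0.066, 0.14 and 0.071 at 2 days and -0.096, -0.22 and -0.054 at 10 days. The 2 day arrays lay above the saline arrays without overlap, but the difference was 0.12, and the 10 day arrays lay below the 2 day arrays, with a difference of -0.21 ± 0.11 (SE) and a limma adjusted p of 0.827. Its 2 probe sets gave 0.13 and 0.10 in the VTA at 2 days and -0.25 and -0.18 for 10 against 2 days, though they correlated at r = -0.24 over the 18 arrays. Uqcr10 in the SN read -0.0014, 0.030 and 0.30 with saline and -0.41, -0.092 and -0.12 at 10 days, and Uqcrq read 0.011, 0.21 and 0.013 and -0.015, -0.21 and -0.12. Both had no overlap between those groups, with differences of -0.31 and -0.19 and limma adjusted p of 0.942 and 0.966. The 3 probe sets of Uqcr10 gave -0.21, -0.43 and -0.30 there. The 4 of Uqcrq disagreed, with -0.30, -0.55, -0.050 and 0.14. Uqcrb in the VTA read 0.051, 0.051 and 0.096 with saline and -0.19, -0.057 and -0.12 at 10 days, a difference of -0.19 ± 0.11 (SE) without overlap, with a limma adjusted p of 0.921, and its 2 probe sets ran against each other over the 18 arrays (r = -0.72). Cyc1 and Uqcrfs1, the catalytic subunits, differed from saline by -0.14 to 0.13 in the 4 comparisons.

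Cytochrome c carries electrons from complex III to complex IV and is also known for starting the caspase cascade when it leaves mitochondria. Its somatic gene Cycs read -0.26, 0.028 and 0.088 with saline, -0.080, -0.063 and 0.33 at 2 days and 0.17, -0.010 and 0.062 at 10 days in the SN. In the VTA it read -0.039, 0.11 and -0.033 with saline, -0.19, 0.15 and 0.14 at 2 days and -0.30, -0.22 and -0.084 at 10 days. The VTA 10 day arrays were all below the VTA saline arrays, and SN 2 day array 3 was the highest of the 18. The difference was 0.11 and 0.12 in the SN, and 0.022 and -0.21 ± 0.14 (SE) in the VTA, the last with a limma adjusted p of 0.935. Its 4 probe sets gave -0.0028, -0.28, -0.063 and -0.50 in the VTA at 10 days.

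Complex IV, cytochrome c oxidase, reduces oxygen with electrons from cytochrome c. Its catalytic subunits are coded in mitochondrial DNA and are not among these genes, and the 17 members are nuclear subunits and their isoforms, with Cox7a2l, known as a supercomplex factor. Their median difference was -0.048 and -0.064 in the SN at 2 and 10 days and 0.0060 and -0.028 in the VTA. The single gene of smallest p was Cox7b2, a testis form of subunit 7b in mouse, in the VTA. It read -0.24, -0.29 and -0.48 on the VTA saline arrays, 0.45, 0.52 and 0.025 at 2 days and 0.048, -0.11 and 0.23 at 10 days. All treated VTA arrays lay above all saline arrays. The difference was 0.67 ± 0.21 (SE) at 2 days, with a 95% interval of 0.23 to 1.10, p before adjustment of 0.00497 and a limma adjusted p of 0.406, and 0.39 ± 0.21 (SE) at 10 days, with a limma adjusted p of 0.912.

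In the SN Cox7b2 read 0.0099, -0.32 and 0.55 with saline, -0.050, 0.15 and -0.0099 at 2 days and -0.33, 0.25 and -0.12 at 10 days. The treated and saline arrays of the SN overlapped, and SN saline array 3 was the highest of all 18. The SN differences were -0.050 and -0.14, and the VTA response exceeded the SN response at 2 days by 0.72 ± 0.29 (SE), with p before adjustment of 0.0251 and a limma adjusted p of 1. The VTA saline mean lay at -0.42 relative to the SN saline mean, which enters that contrast. Leaving out each of the 6 arrays compared gave VTA 2 day differences of 0.57 to 0.82, and Cox7b2 has 1 probe set.

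Cox7c, a small nuclear subunit, had a mean above saline in all 4 comparisons. It read -0.40, -0.32 and -0.26 with saline, 0.24, -0.26 and 0.19 at 2 days and 0.43, 0.38 and -0.36 at 10 days in the SN, and 0.65, -0.67 and -0.27, 0.92, 0.027 and 0.099 and 0.22, 0.56 and -0.40 in the VTA. Treated arrays were both the highest and, in the SN at 10 days, among the lowest, and the groups overlapped. The differences were 0.38 ± 0.33 (SE) and 0.47 ± 0.33 (SE) in the SN and 0.44 ± 0.33 (SE) and 0.22 ± 0.33 (SE) in the VTA, with limma adjusted p of 0.885, 0.96, 0.791 and 0.989. Of the 2 probe sets of Cox7c, 1 gave 0.56, 0.71, 0.86 and 0.77 in the same order. The other gave 0.20, 0.24, 0.027 and -0.33, so the average rests mostly on 1 of them. Cox4i1, Cox5a, Cox5b and Cox6c, widespread subunits, had differences from saline of -0.10 to 0.012 in the 4 comparisons. Cox6b1 in the SN read 0.025, 0.080 and 0.079 with saline and -0.13, 0.0071 and -0.022 at 2 days, without overlap, a difference of -0.11.

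The isoforms of complex IV are described by their spread between replicate arrays, with no test. The 7 tissue-restricted forms, Cox4i2, Cox6a2, Cox6b2, Cox7a1, Cox7b2, Cox8b and Cox8c, had a median within-group SD of 0.376 (range 0.190 to 0.732), and 1 of 7 was below the median of all genes, 0.237. The widespread partners Cox4i1, Cox6a1, Cox6b1, Cox7a2 and Cox8a had a median of 0.166. This does not hold pair by pair. Cox8c (0.190) varied less than Cox8a (0.249), Cox6a2 (0.295) was close to Cox6a1 (0.281), and Cox7b2 has no partner among the 5. Cox7c, a complex IV gene in neither list, had 0.451, above the restricted form Cox4i2 at 0.376. Of the 7 restricted forms 5 have 1 probe set, while 4 of the 5 partners average 2 or 3, and the part of this in the spread was not tested. Cox7a1, the muscle form of subunit 7a, was the most variable member and read -0.71, 1.34 and 0.48 with saline in the SN, -0.89, -0.29 and 0.88 at 10 days in the SN and -1.12, -0.11 and 0.84 at 10 days in the VTA. Arrays of 1 group thus lay further apart than the means of any groups of this gene. Its differences from saline were -0.56 and -0.47 in the SN and -0.15 and -0.48 in the VTA, all smaller than its within-group SD. Cox8b, the muscle form of subunit 8, read -0.39, 0.0023 and 0.78 in the SN and -0.79, -0.066 and 0.97 in the VTA at 10 days, and its array 3 was the highest in both.

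Over all 48 genes the median within-group SD was 0.164, and 32 of 48 (66.7%) were below the median of all genes. By complex it was 0.143 for complex II, 0.163 for III, 0.249 for IV and 0.154 for V, and 0.158 for Cycs. Without the tissue-restricted forms complex IV had a median of 0.137. The least variable member was Atp5a1, the alpha subunit of the ATP synthase, with 0.0678. A low spread in centred data does not tell a steady gene from a probe set without signal. Several probe sets were averaged for 30 of 48 members, against 9010 of 18193 genes, and the part of this in the spread was not tested.

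**Figure D2:**
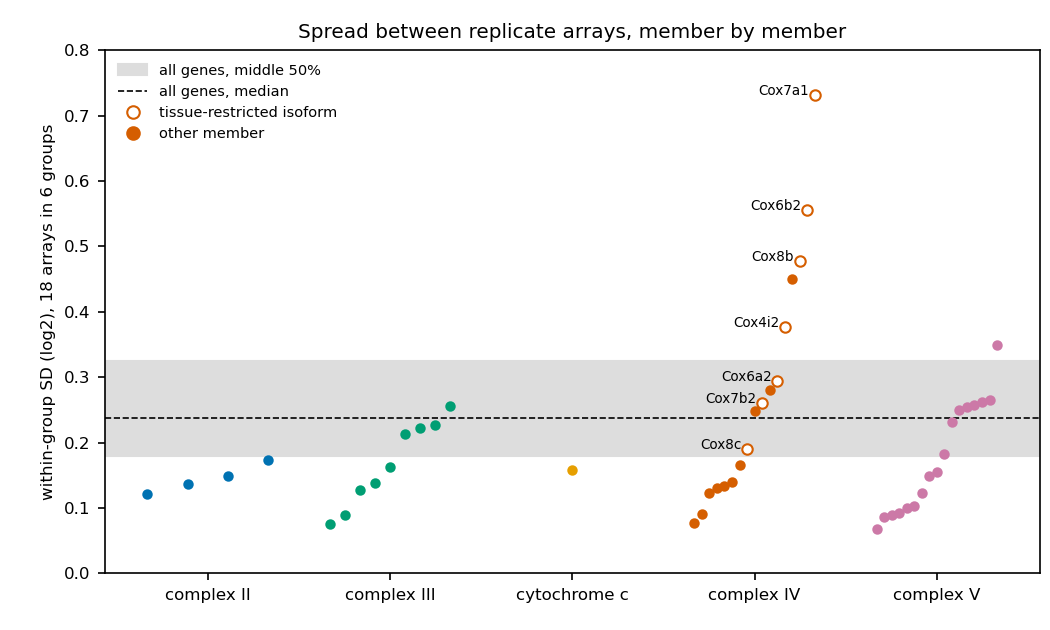
Within-group SD of the log2 signal (vertical axis) for each of the 48 genes, over 18 arrays in 6 groups, by complex; open circles are tissue-restricted complex IV isoforms, the grey band holds the middle 50% of all genes and the dashed line is their median, 0.237. Cox7a1, Cox6b2 and Cox8b stand above every other member.

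Complex V makes ATP from the proton gradient. The members include the alpha, beta, gamma, delta and epsilon subunits of the catalytic part (Atp5a1, Atp5b, Atp5c1, Atp5d and Atp5e), the ring subunit c (Atp5g1, Atp5g2 and Atp5g3, which code for the same mature protein), the stalk subunits Atp5o, Atp5pb, Atp5h and Atp5j, and small membrane subunits. In the SN 11 of 17 were below 0 at 2 days and 13 of 17 at 10 days, with medians of -0.079 and -0.051. In the VTA 10 of 17 were above 0 at 2 days and 13 of 17 below 0 at 10 days, with medians of 0.0071 and -0.075. Of the ring genes, Atp5g2 read 0.17, 0.17 and 0.28 on the SN saline arrays, -0.023, -0.25 and 0.14 at 2 days and -0.056, -0.32 and -0.016 at 10 days. All SN saline arrays lay above all treated SN arrays. The difference was -0.25 ± 0.14 (SE) at 2 days and -0.34 ± 0.14 (SE) at 10 days, the latter with p before adjustment of 0.0297, and the limma adjusted p were 0.797 and 0.887.

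In the VTA Atp5g2 read 0.054, -0.050 and 0.31 with saline, 0.058, -0.0027 and -0.15 at 2 days and -0.22, -0.062 and 0.12 at 10 days, and differed by -0.14 and -0.16 with overlap. Its 3 probe sets gave SN differences of -0.062, -0.069 and -0.63 at 2 days and -0.30, -0.22 and -0.49 at 10 days, so the 2 day value rests on 1 of them. The other ring genes did not follow it closely. Atp5g1 differed by -0.079 and -0.24 in the SN, and Atp5g3 by -0.042 and -0.070.

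Atp5d, the delta subunit, read 0.22, 0.19 and 0.20 with saline, 0.21, -0.016 and -0.25 at 2 days and -0.31, -0.23 and 0.25 at 10 days in the SN. The saline arrays were close together, and 1 array of each treated group lay among or above them. The SN differences were -0.22 ± 0.16 (SE) and -0.30 ± 0.16 (SE), with limma adjusted p of 0.836 and 0.925, and the VTA differences were -0.15 and -0.23. Averaged over both regions, the 10 day difference was -0.26 ± 0.11 (SE) for Atp5d and -0.25 ± 0.10 (SE) for Atp5g2, with p before adjustment of 0.0307 and 0.0249 and limma adjusted p of 0.598 and 0.569. In that average 0 of 48 members passed (all genes, 0.0385%), and 0 of 48 passed in the average at 2 days (all genes, 0.0879%).

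Of the catalytic alpha and beta subunits, which bind the nucleotides, alpha had the differences smaller in size. Atp5a1 read 0.015, 0.026 and -0.0019 with saline and -0.032, -0.11 and -0.014 at 10 days in the VTA, without overlap and with a difference of -0.064. Atp5b differed by -0.19, -0.17, -0.012 and -0.14 in the SN at 2 and 10 days and the VTA at 2 and 10 days, and its lowest array was SN 2 day array 1 at -0.52. Atp5c1, the gamma subunit of the rotor, was the complex V gene with the largest positive differences, at 0.19 in the SN at 10 days, 0.24 in the VTA at 2 days and 0.19 at 10 days, with limma adjusted p of 0.981, 0.808 and 0.982. Of its 2 probe sets, 1 gave 0.31, 0.44 and 0.40 in these comparisons, and the other gave 0.070, 0.040 and -0.021. Atp5pb, a stalk subunit, read 0.030, 0.029 and 0.18 with saline, -0.016, -0.015 and 0.0056 at 2 days and -0.048, -0.17 and -0.18 at 10 days in the VTA. Neither treated group overlapped saline, and the 10 day difference was -0.21 ± 0.12 (SE), with a limma adjusted p of 0.92, carried by 1 of its 2 probe sets (-0.38 against -0.052).

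**Figure D3:**
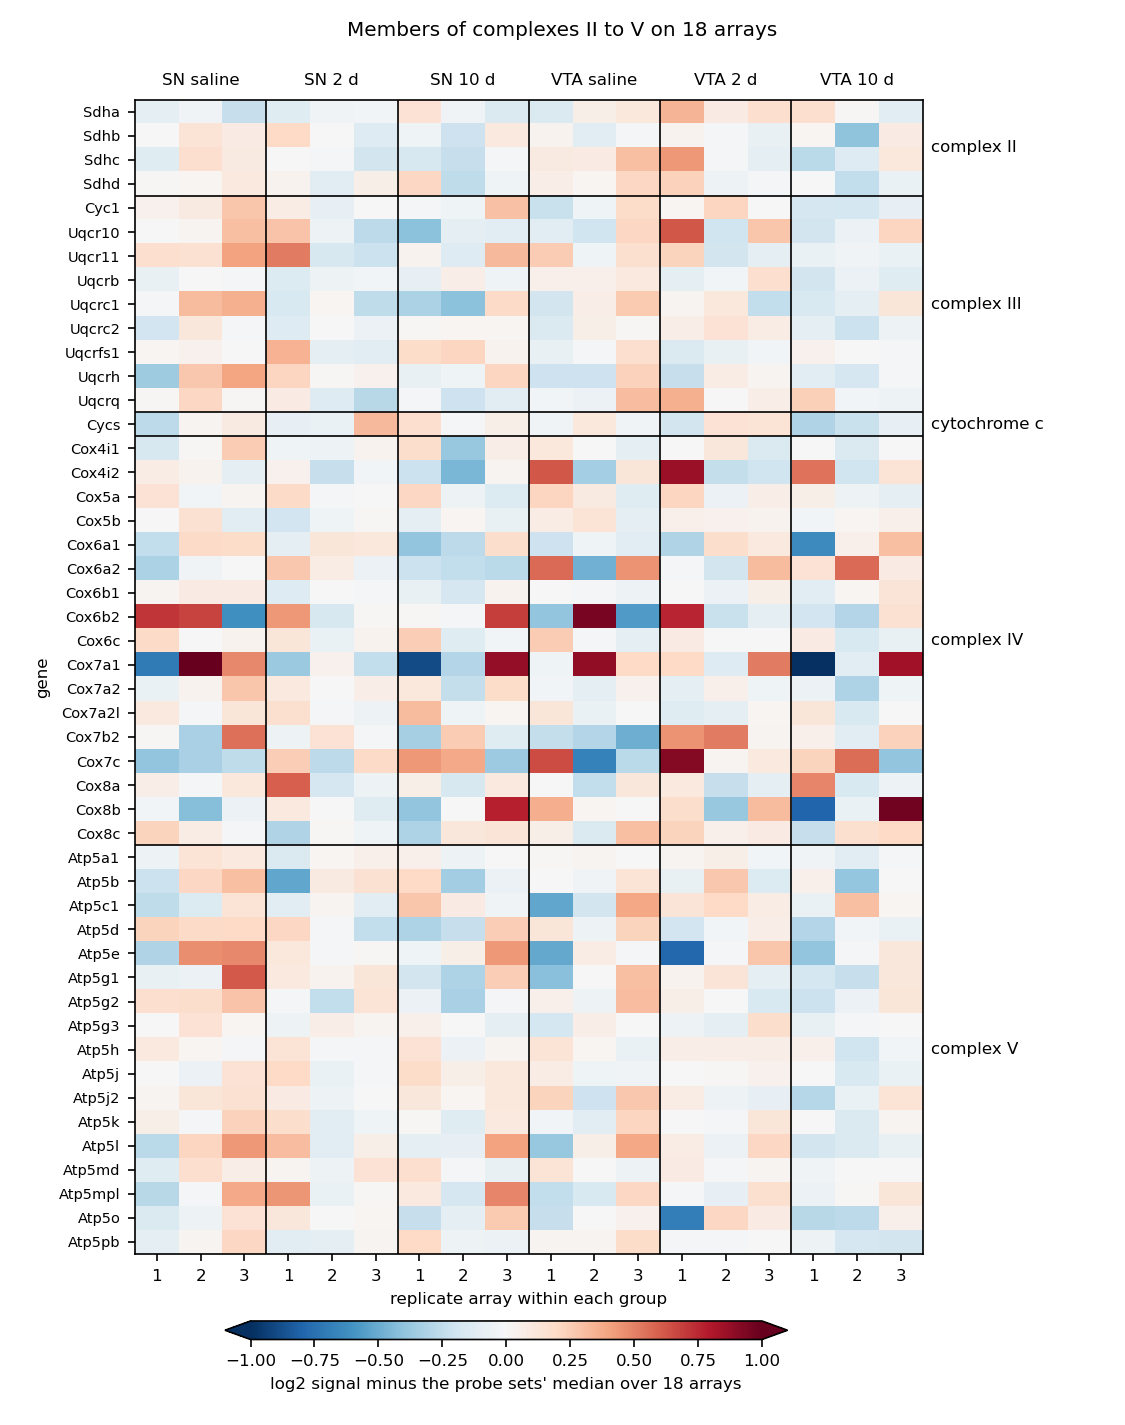
Centred log2 signal (colour) of each of the 48 genes (vertical axis) on the 18 arrays (horizontal axis, 3 per group), with lines between complexes and groups; values beyond 1 either way take the end colour. Differences between arrays of 1 group, as for Cox7a1, are as large as those between groups.

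Groups without overlap were counted over all members. In the SN at 2 days 2 of 48 members had all MPTP arrays below all saline arrays, Cox6b1 and Atp5g2 (all genes, 8.56%), and 0 had them above (all genes, 5.96%). In the SN at 10 days it was 3 below, Uqcr10, Uqcrq and Atp5g2 (all genes, 6.27%), and 0 above (all genes, 5%). In the VTA at 2 days 1 was below, Atp5pb (all genes, 4.92%), and 2 above, Uqcrc2 and Cox7b2 (all genes, 5.1%). In the VTA at 10 days 5 were below, Sdhd, Uqcrb, Cycs, Atp5a1 and Atp5pb (all genes, 4.53%), and Cox7b2 was above (all genes, 4.77%). Uqcr10, Uqcrq and, at 2 days, Atp5pb were named after their values were seen. In 3 of the 4 comparisons the count is near or under what the share of all genes gives, and the 5 at 10 days in the VTA rest on differences of -0.21 to -0.064.

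The 2 durations were also compared with each other. In the SN the median member difference of 10 against 2 days was -0.0019 (all genes, 0.0088), 23 of 48 were above 0 (all genes, 52.1%), and 0 of 48 passed (all genes, 0.0165%). In the VTA it was -0.077 (all genes, 0.00020), with 40 of 48 below 0 (all genes, 50.1% above 0), and 0 of 48 passed (all genes, 0.033%). All 4 complex II genes, 8 of 9 complex III genes, Cycs, 12 of 17 complex IV genes and 15 of 17 complex V genes lay below 0 in the VTA. The members of smallest p there were Uqcrc2, given above, Cyc1 at -0.22 ± 0.13 (SE) and Cycs at -0.24 ± 0.14 (SE), with a limma adjusted p of 0.86 for both. The members are measured on the same arrays, so these counts are not counts of independent events. Genes of complexes II, III and V varied together to some degree, while those of complex IV hardly did (median r of 0.048 with the group means taken out).

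Between the regions, 0 of 48 members passed with saline (all genes, 0%), at 2 days (all genes, 0%), at 10 days (all genes, 0%) or in the average of the 3 treatments (all genes, 0%). In the average the 95% interval of the difference of VTA minus SN lay within a 2-fold change for all 48 members (98.9% of all genes), and its median was -0.022 (all genes, 0.0078). With saline, the complex medians of VTA minus SN were 0.081 for complex II, -0.12 for III, -0.026 for IV and -0.067 for V, and Cycs was at 0.059. In complex V 16 of 17 genes lay below 0 in the VTA with saline (all genes, 50% above 0), by up to -0.37 for Atp5e, the epsilon subunit. The complex V median of this comparison changed sign without SN saline array 3, as given in the last section. The median complex V gene stood at -0.073, 0.12 and 0.20 on SN saline arrays 1 to 3. At 10 days 16 of 17 complex V genes were also below 0 (all genes, 51.1% above 0), with a median of -0.051. At 2 days it was 10 of 17 (all genes, 53.7% above 0), with a median of -0.010. The average of the 3 treatments had 15 of 17 below 0 (all genes, 52.6% above 0) and a median of -0.035. Sdha was higher in the VTA on average, by 0.14 ± 0.072 (SE), and Atp5e lower, by -0.27 ± 0.15 (SE), both with a limma adjusted p of 0.972. The 4 probe sets of Sdha gave 0.048, 0.066, 0.13 and 0.32 in this average. Atp5e has 1 probe set, and its lowest array was VTA 2 day array 1, an array of wide spread, at -0.78.

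Cox6a2, the muscle form of subunit 6a, had the largest mean difference of a member between regions at 10 days. With saline this was Cox7b2 at -0.42, at 2 days Cox7a1 at 0.39, and in the average Atp5e, given above. Cox6a2 read -0.32, -0.038 and 0.00065 in the SN and 0.57, -0.48 and 0.45 in the VTA with saline, 0.27, 0.076 and -0.055 and -0.019, -0.18 and 0.31 at 2 days, and -0.22, -0.24 and -0.27 and 0.14, 0.57 and 0.083 at 10 days. At 10 days the VTA arrays were all above the SN arrays, and at the other treatments they overlapped. The 10 day difference was 0.51 ± 0.23 (SE), with p before adjustment of 0.04 and a limma adjusted p of 1, and its 2 probe sets gave 0.47 and 0.55. The average difference was 0.25 ± 0.13 (SE).

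Whether the VTA and SN responses differ was tested as the difference of differences. At 2 days 0 of 48 members passed (all genes, 0%), and at 10 days 0 of 48 (all genes, 0%). At 2 days 37 of 48 had a VTA response above the SN response (all genes, 52.6%), with a median of 0.067 (all genes, 0.016), and at 10 days 21 of 48 (all genes, 51.8%), with a median of -0.014 (all genes, 0.011). Leaving out 1 array gave 2 day medians of 0.017 to 0.11 (without SN 2 day array 2 and without SN saline array 1) with 27 to 40 of 48 above 0. By complex the 2 day medians were 0.056 for II, 0.15 for III, 0.060 for IV and 0.090 for V. After Cox7b2, the members of smallest p at 2 days were Uqcr10 at 0.38 ± 0.29 (SE) and Cyc1 at 0.24 ± 0.19 (SE).

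**Figure D4:**
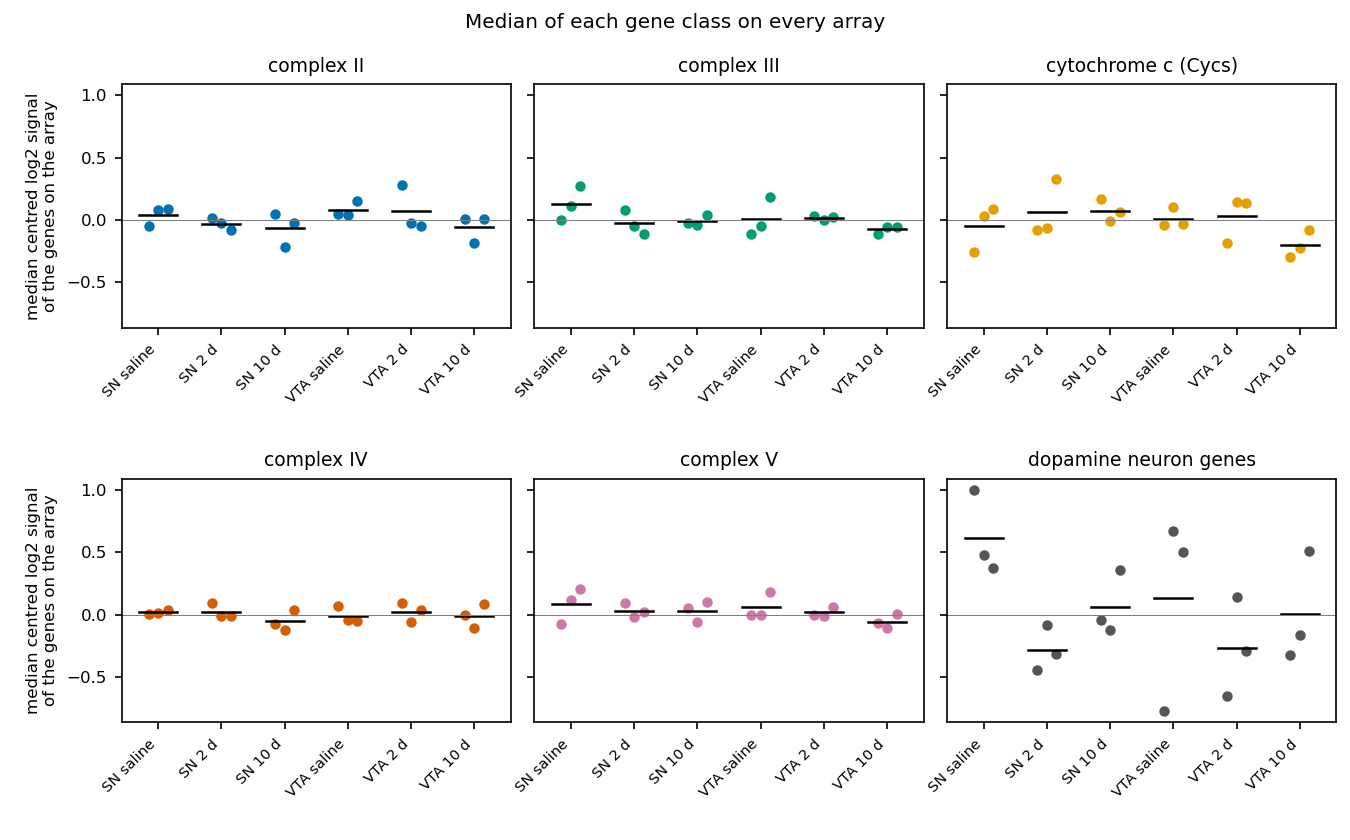
Median centred log2 signal (vertical axis) of each complex, of cytochrome c, and of 13 dopamine neuron genes on every array, by region and treatment (horizontal axis); points are arrays and bars are means of 3. The complexes stay close to 0 while the dopamine neuron genes are spread over more than 1 log2 unit.

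Genes that define dopamine neurons varied far more on the same arrays. The list of 13 such genes had a median difference from saline of -0.97 and -0.51 in the SN at 2 and 10 days, and -0.46 and -0.17 in the VTA, with 0 of 13 past the adjusted threshold in each. In the SN at 2 days 13 of 13 were below 0 (all genes, 44.7% above 0), 10 of them with limma's p before adjustment under 0.05 (all genes, 3.8% lower at that p). Th, which codes for the enzyme that limits dopamine synthesis, read 1.45, 0.59 and 0.57 with saline and -0.27, -0.12 and -0.87 at 2 days in the SN, without overlap and with a difference of -1.29 ± 0.52 (SE) and a limma adjusted p of 0.696. The median of the list stood at 1.00, 0.48 and 0.37 on the SN saline arrays, where the median of the 48 members stood at -0.011, 0.039 and 0.11. Across the 18 arrays the mean of the members and the mean of the dopamine list had a Pearson r of 0.19 and a Spearman rho of 0.16, given as a description of arrays that share groups.

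Markers of other cell types also had differences between the groups, though none passed the test in the 4 comparisons with saline. The 11 astrocyte genes had a median difference of 0.26 and 0.17 in the SN at 2 and 10 days, with 9 of 11 above 0 in each, and -0.16 and -0.063 in the VTA. The median of the list lay between -0.22 and -0.026 on the SN saline arrays, between 0.073 and 0.28 at 2 days and between -0.018 and 0.20 at 10 days. The 9 oligodendrocyte genes had medians of -0.21 and -0.24 in the SN and -0.39 and -0.25 in the VTA, with 8, 8, 9 and 8 of 9 below 0. The 9 choroid plexus genes had medians of 0.097 and 0.79 in the SN and 0.51 and 0.31 in the VTA, and the 10 microglia genes -0.054, 0.022, -0.32 and -0.028. The 7 endothelial genes had -0.033, 0.13, -0.087 and 0.052, and 3 erythrocyte genes -0.67, -0.54, -0.0063 and -0.30, in the same order. The part of these shifts in the values of the respiratory genes was not tested.

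The arrays that were high for one complex were often high for another. Over the 18 arrays the mean of complex III followed that of complex V with a Pearson r of 0.76 and a Spearman rho of 0.75. Complexes II and III were related at 0.60 and 0.60, and II and V at 0.31 and 0.40. Complex IV was related to II at 0.51 and 0.33, to III at 0.44 and 0.35, and to V at 0.19 and 0.17. These arrays share 6 groups, amplification and normalisation. After the group means were taken out, the median correlation between genes of a complex was 0.43 in complex II, 0.25 in III, 0.048 in IV and 0.20 in V. Among 30 members with several probe sets the median of the mean pairwise r was 0.25, with 6 below 0 and 10 above 0.5, against 0.15 over 9010 genes of the array, of which 25.5% were below 0 and 13% above 0.5.

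Genes that act on the complexes without being part of them were set beside the members. Of the assembly factors, 4 of complex II, 6 of III, 23 of IV and 4 of V were measured, and none passed in the 4 comparisons with saline. The assembly factors of complex IV had medians of -0.062 and -0.031 in the SN at 2 and 10 days and -0.031 and -0.092 in the VTA. Cox18, which helps to insert a complex IV subunit into the membrane, had differences of 0.90 ± 0.21 (SE) and 0.83 ± 0.21 (SE) in the VTA, with p before adjustment of 0.000644 and 0.00132 and limma adjusted p of 0.305 and 0.441, and 0.62 in the SN at 10 days. The 17 regulators of mitochondrial biogenesis had medians of 0.11 and 0.10 in the SN and 0.051 and 0.13 in the VTA, with 12, 12, 11 and 10 of 17 above 0 and 0 past the threshold. Among them Ppargc1a, a coactivator of NRF1, differed by 0.28 ± 0.13 (SE) in the SN at 2 days, with a limma adjusted p of 0.731, and Yy1, whose motif was searched above, by 0.48 ± 0.18 (SE), with 0.653. The 13 enzymes of the citric acid cycle, which supplies complex II, had medians of -0.040 and 0.028 in the SN and -0.027 and 0.0037 in the VTA, again with 0 past the threshold.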

How the data were processed

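Gene expression was measured on Affymetrix mouse arrays in laser-captured dopamine neurons, in 6 groups of 3 arrays taken from the sample titles. RNA was extracted with an RNeasy Micro kit and amplified with the WT-Ovation Pico system, per the labels' protocols. The table the authors deposited gives 45101 probe sets on a log2 scale. It was made by RMA in GeneSpring GX 10.0 per the design text of the series, and the submitters' processing notes name RMA too. Each probe set's median over the 18 arrays was found to be 0 to within 5e-07, a centring that no source states. No level, detection call or filter on dim probe sets can therefore be had. Precision is limited by how many arrays there were.

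Gene names came from the annotation of the platform, which can be old: 34945 had 1 symbol, 932 several and 9211 none, and 64 control probe sets were left out. All 48 members were found in the RefSeq gene table of GRCm38.p6. Probe sets of a gene were averaged. The test was limma 3.58.1 (lmFit, then eBayes; R 4.3.3), fitted to all 18 arrays as 6 group means with 12 residual and 4.057 prior degrees of freedom, two-sided, with Benjamini-Hochberg adjustment over 18193 genes and a threshold of 0.05. The fit was tested on simulated data. There were 14 comparisons, and 95% intervals are 2.119 SE either side. Errors of differences are standard errors (SE). Promoter windows are from RefSeq. Python 3.11.15 with matplotlib 3.10.9 made the plots.

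The members and the other lists were chosen with earlier results of these data known. Named are every member past the threshold, the 3 members of smallest p each way per comparison, a fixed set of catalytic subunits and isoforms, and Th, Ppargc1a and up to 2 genes of smallest p each way of another list, and not every eligible gene is printed. Alternatives were other summaries of probe sets, other normalisation, array weights, fewer arrays, a replicate block, and each array left out in turn. The use of averaged probe sets without probe sets ending in _s_at or _x_at, which can match several transcripts, was added after seeing the data, and 27 of the 96 member probe sets are of that kind.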

Additional observations from a re-analysis of the deposited data

How the results depend on the processing

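No member passed limma's adjusted threshold in any of the 14 comparisons under any alternative run, and the smallest adjusted p of a member was 0.194. Medians of a complex were 0.15 or less in size in most comparisons, and over all comparisons and alternatives of processing 683 such medians moved by less than the spread between arrays and 17 by more. With 1 array left out, 585 moved by less and 15 by more. That spread is the within-group SD of the class median on single arrays. It was 0.114 for complex II, 0.0972 for III, 0.158 for Cycs, 0.0716 for IV and 0.0877 for V. Many of the medians are smaller than this, so a median can change sign and still count as having moved by less. No single member came past the threshold. With 3 arrays per group and centred values, changes well under 2-fold and genes without signal cannot be resolved.

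With the probe set of largest SD in place of the average, Cycs stood at 0.270 in the SN at 2 days, 0.460 at 10 days, 0.190 for 10 against 2 days, 0.198 in the 10 day average and -0.523 in the 10 day difference of responses. Complex III in the SN at 10 days had a median of -0.211 with array weights and -0.200 without the 2 widest arrays, and in the 2 day difference of responses 0.245 with array weights. Without the 2 widest arrays, complex II stood at -0.0115 for VTA minus SN at 2 days, and in the 2 day difference of responses Cycs stood at 0.129 and complex IV at -0.0312. Complex IV for VTA minus SN at 10 days was 0.0756 with repeated quantile normalisation and 0.0853 with array weights. Without probe sets ending in _s_at or _x_at, complex II was -0.0405 for VTA minus SN with saline, 0.174 in the 2 day difference of responses and 0.0497 in that at 10 days, which was 0.0476 with all probe sets taken singly. The cause was not tested.

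With 1 array left out, the complex III median ran from -0.200 (without SN saline array 1) to 0.0141 (without SN saline array 3) in the SN at 10 days, from -0.0532 (without VTA saline array 1) to 0.134 (without VTA saline array 3) in the VTA at 2 days, from -0.131 to 0.0192 (without VTA saline array 3) at 10 days, and from -0.0776 (without SN 2 day array 3) to 0.0646 (without SN 10 day array 2) for 10 against 2 days in the SN. It ran from 0.0958 to 0.268 (without SN saline array 1) in the 2 day and from -0.112 (without SN 10 day array 2) to 0.105 (without SN 10 day array 3) in the 10 day difference of responses. Complex IV ran from -0.0755 (without SN 10 day array 2) to 0.148 (without SN 10 day array 3) in the latter and from -0.0141 to 0.0942 (without SN 10 day array 3) for VTA minus SN at 10 days. Complex V ran from -0.118 to 0.0234 (without SN saline array 3) for VTA minus SN with saline and from -0.148 (without SN 10 day array 2) to -0.0502 at 10 days, and complex II from -0.0115 (without VTA 2 day array 1) to 0.183 at 2 days.

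The titles number the replicates of each group 1 to 3. Deviations from the group means of same-numbered SN and VTA arrays of a treatment correlated at 0.050 to 0.399, above 0.1 in 7 of 9 pairs, and 17 of 18 arrays were closest to their own number, a hint from the data and not from the design. With the replicate number as a block the count of members called stayed at 0 in each comparison, and with a random block within treatment (correlation 0.187) it was also 0.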
